A study of Mus with 6 samples.

Results

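Rps3a1 encodes ribosomal protein S3A, also called eS1, a protein of the small (40S) ribosomal subunit that lies near the exit of the mRNA channel and is needed for translation initiation. Mammalian ribosomal protein mRNAs are abundant and have often been copied back into the genome as processed pseudogenes, which lack introns and usually lack the promoter of the parent gene. A sequencing read from such a gene can match parent and copy equally well, so a level given for a copy can hold reads of parent transcripts. The family described here has 4 genes, picked by name out of 54532 in the expression table: Rps3a1 itself, Rps3a2, Rps3a3 and Gm6166. It was picked with values of these libraries known, so its levels are a description and carry no test.

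Expression was measured by RNA sequencing in 3 libraries from mice labelled CNTNAP4-KO (KO) and 3 from mice labelled wild type (WT), all labelled male and brain, basolateral amygdala. The sources used here do not give the strain, the age or the deleted part of Cntnap4, a neuronal adhesion gene. The series title names Lactobacillus reuteri, and no treated mouse was analysed here. Values are FPKM, fragments per kilobase of gene scaled by library size, with 17647556 to 18936386 reads in genes in KO libraries and 17789079 to 20813211 in WT libraries.

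Some libraries stood apart from their labels or their group. Cntnap4 measured 1.61, 1.00 and 1.48 FPKM in KO replicates 1 to 3, against 2.03, 3.59 and 4.91 FPKM in WT replicates 1 to 3, with every KO value below every WT value. The library labelled KO replicate 1 had 43.0 FPKM of Xist, which is made from the inactive X of females, and 0 reads on the genes Uty, Kdm5d, Eif2s3y and Ddx3y of the Y chromosome, although its mouse is labelled male. The other 5 libraries had at most 0.0346 FPKM of Xist and 2831 to 4001 Y-linked reads. Summed over 6 markers of basolateral amygdala projection neurons, levels were 60.7 to 168 FPKM in KO and 37.5 to 40.2 FPKM in WT, and no marker was at 0. Of the 6, Etv1 ran the other way, at 3.95 to 4.86 FPKM in KO and 5.22 to 5.76 FPKM in WT. Summed levels of 5 oligodendrocyte markers were 600 to 906 FPKM in KO and 1005 to 1342 FPKM in WT. Those of 4 erythrocyte genes were 76.8 to 141 FPKM in KO and 58.1 to 75.1 FPKM in WT. Neither sum overlapped between groups, nor did Cntnap4. In FPKM the groups did not overlap for 22.6% of the 16155 genes averaging at least 0.5 FPKM, so such gaps were common. Single genes of both lists did overlap. Mbp, an oligodendrocyte marker, measured 316 to 513 FPKM in KO and 428 to 575 FPKM in WT. The erythrocyte genes Hba-a1 and Hbb-bt were lower in KO replicate 2 than in WT replicate 2. The summed level of 5 striatal neuron markers was 899 to 1185 FPKM in KO and 621 to 822 FPKM in WT. Of these genes Drd1 overlapped, at 32.3 to 62.3 FPKM in KO and 27.6 to 33.4 FPKM in WT, and the others did not. The striatal sum was above the amygdala sum in every library. The lists hold different genes, so their sums do not rank amounts of tissue. No reference tissue was compared, so the regions in the dissected pieces were not measured. Fewer cells of a type and less RNA per cell cannot be told apart in such bulk samples.

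The 4 genes lie on 4 chromosomes, none of them the Cntnap4 chromosome. On GRCm38, Rps3a1 (ENSMUSG00000028081) spans chromosome 3, 86137940 to 86142702, on the minus strand, with 977 bases counted as gene length out of a span of 4763. It is the protein-coding member of the family. Rps3a2 (ENSMUSG00000062611, chromosome 14, 88123017 to 88123808, minus strand) and Rps3a3 (ENSMUSG00000059751, chromosome 13, 108670603 to 108671397, plus strand) are annotated as processed pseudogenes, with gene lengths of 792 and 795 bases equal to their spans. Gm6166 (ENSMUSG00000074280, chromosome 9, 57483963 to 57484371, plus strand) is a processed pseudogene of 409 bases. The table describes Rps3a2 and Rps3a3 as ribosomal protein S3A genes and Gm6166 only as a predicted gene, and sequence identity between the 4 was not analysed here. All 4 symbols matched RefSeq's GRCm38.p6 gene table, which lists the copies as pseudogenes and draws them longer, at 882, 864 and 678 bases for Rps3a2, Rps3a3 and Gm6166. A further gene described as a ribosomal protein S3A pseudogene, AC087802.5, is no member, and it had 1 read over the 6 libraries together.

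Rps3a1 was an abundant transcript, at rank 54 of all genes by mean level. Its level was 436, 205 and 242 FPKM in KO replicates 1 to 3, against 382, 457 and 508 FPKM in WT replicates 1 to 3. KO replicates 2 and 3 were the lowest of the 6 libraries, and KO replicate 1 lay inside the WT range, so the groups overlapped. FPKM times gene length was 426291, 200373 and 236240 in KO and 372808, 446451 and 496330 in WT. These products were whole multiples of the value of 1 read, and stand for 8017, 3627 and 4186 reads in KO and 6878, 8029 and 10789 reads in WT. The mean was 294 ± 124 FPKM in KO and 449 ± 63.6 FPKM in WT (SD, n = 3 each). On the log2(FPKM + 0.5) scale, KO minus WT was -0.68 ± 0.28 (SE), and -1.00 ± 0.15 without KO replicate 1.

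Rps3a2, an intronless copy, was low in 4 libraries and abundant in the other two. Its level was 2.01, 91.9 and 83.9 FPKM in KO replicates 1 to 3, against 1.37, 2.74 and 2.32 FPKM in WT. KO replicate 1 lay inside the WT range, and KO replicates 2 and 3 were 42.9 and 39.2 times the WT mean. The products with gene length were 1595, 72757 and 66481 in KO and 1084, 2169 and 1840 in WT, which stand for 30, 1317 and 1178 reads in KO and 20, 39 and 40 in WT. By level Rps3a2 ranked 11651, 423 and 484 of all genes in KO replicates 1 to 3, and between 10632 and 13012 in WT. The mean was 59.3 ± 49.7 FPKM in KO and 2.14 ± 0.702 FPKM in WT (SD, n = 3 each), so the spread within KO was nearly as large as its mean. KO minus WT was 3.39 ± 1.34 on the log2 scale, and 5.10 ± 0.24 without KO replicate 1.

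Rps3a3 had the same split between libraries. Its level was 2.21, 61.0 and 78.4 FPKM in KO replicates 1 to 3, against 1.23, 0.979 and 1.56 FPKM in WT. Here KO replicate 1 was above every WT library, but by little: its 33 reads give a 95% Poisson interval of 1.52 to 3.10 FPKM, which overlaps the 1.03 to 2.27 FPKM of WT replicate 3. The products with gene length were 1755, 48505 and 62305 in KO and 976, 778 and 1242 in WT. KO replicates 2 and 3 had 878 and 1104 reads, against 14 to 27 reads in WT. The mean was 47.2 ± 39.9 FPKM in KO and 1.26 ± 0.293 FPKM in WT (SD, n = 3 each). KO minus WT was 3.76 ± 1.21 on the log2 scale, and 5.32 ± 0.17 without KO replicate 1.

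Gm6166, the shortest copy, moved with the other two. Its level was 1.30, 27.3 and 31.7 FPKM in KO replicates 1 to 3, against 2.12, 2.31 and 3.15 FPKM in WT. KO replicate 1 was the lowest library of all, with 10 reads and an interval of 0.623 to 2.39 FPKM that overlaps those of the WT libraries. The products with gene length were 532, 11159 and 12980 in KO and 867, 945 and 1288 in WT, and KO replicates 2 and 3 had 202 and 230 reads, against 16 to 28 in WT. The ratio to the WT mean, 10.8 in KO replicate 2 and 12.6 in KO replicate 3, was smaller than for Rps3a2 and Rps3a3. The mean was 20.1 ± 16.4 FPKM in KO and 2.53 ± 0.547 FPKM in WT (SD, n = 3 each). KO minus WT was 1.97 ± 1.05 on the log2 scale, and 3.32 ± 0.16 without KO replicate 1.

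**Figure D1:**
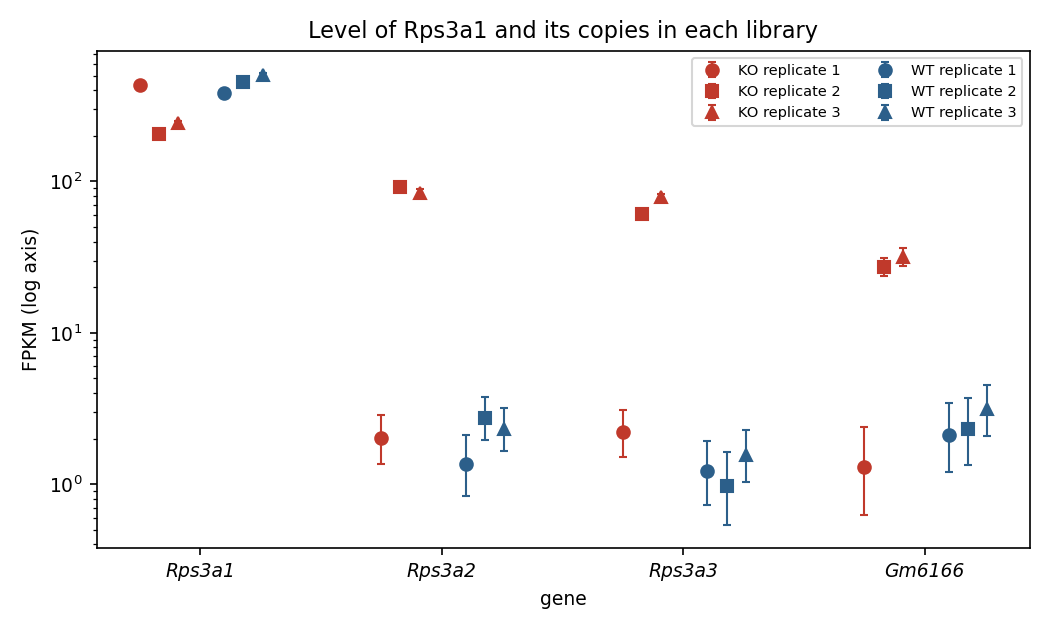
FPKM (log axis) of the 4 genes in each library, KO in red and WT in blue, with 95% Poisson intervals of the reads. Rps3a2, Rps3a3 and Gm6166 sit between 27.3 and 91.9 FPKM in KO replicates 2 and 3 and between 0.979 and 3.15 FPKM in the other 4 libraries, while Rps3a1 is lowest in those same 2 libraries.

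In the order of levels per length, Rps3a1 stood first in every library. Among the copies the order changed: in KO replicates 2 and 3 it ran Rps3a2, Rps3a3, Gm6166, though in KO replicate 3 the intervals of Rps3a2 (79.2 to 88.9 FPKM) and Rps3a3 (73.8 to 83.1 FPKM) overlap. In KO replicate 1 and the WT libraries the 3 copies had between 10 and 40 reads each, and neighbours in the order had overlapping intervals in each of these 4 libraries. All 4 genes passed the filter on low values (a mean of at least 0.5 FPKM), and 0 of 4 passed an adjusted p of 0.05 in the limma fit over 16155 genes, where 0.0124% of genes passed. Without KO replicate 1, 3 of 4 passed (the 3 copies), where 0.0557% of all genes passed. The groups did not overlap for 1 of 4 members, Rps3a3, and for 22.6% of all tested genes. The members were noticed through these calls, so nothing is read from the counts.

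The share of each gene in the family's reads shows how the 4 values moved against each other. Rps3a1 held 99.1%, 60.2% and 62.5% of family reads in KO replicates 1 to 3, against 99.2%, 99.1% and 99.1% in WT replicates 1 to 3. The 3 copies together held 0.902%, 39.8% and 37.5% in KO, against 0.779%, 0.864% and 0.873% in WT. KO replicate 1 was the highest of the 4 low libraries, but its exact 95% binomial interval of 0.708 to 1.13% covers all 3 WT values. The intervals were 38.6 to 41.0% in KO replicate 2 and 36.3 to 38.7% in KO replicate 3. They cover counting error only, and leave out variation between mice or libraries. Without molecular identifiers, reads duplicated from the same molecule could not be told apart, so the intervals may be too narrow.

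By gene, Rps3a2 held 0.371%, 21.9% and 17.6% of family reads in KO replicates 1 to 3, against 0.289%, 0.482% and 0.368% in WT. Rps3a3 held 0.408%, 14.6% and 16.5% in KO, against 0.260%, 0.173% and 0.248% in WT. Gm6166 held 0.124%, 3.35% and 3.43% in KO, against 0.231%, 0.210% and 0.257% in WT. In each case the value in KO replicates 2 and 3 was more than 10 times that of any other library. Averaged over libraries, the copies together held 26.1 ± 21.8% in KO and 0.839 ± 0.0519% in WT (SD, n = 3 each), and 38.6% in KO without replicate 1.

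Within the reads of the copies, the split between them also differed among libraries. Rps3a2 took 41.1%, 54.9% and 46.9% of copy reads in KO replicates 1 to 3, against 37.0%, 55.7% and 42.1% in WT. Rps3a3 took 45.2%, 36.6% and 43.9% in KO, against 33.3%, 20.0% and 28.4% in WT. The exact 95% intervals of KO replicates 2 and 3 did not overlap for Rps3a2 (52.9 to 56.9% and 44.9 to 48.9%) or Rps3a3 (34.7 to 38.6% and 42.0 to 45.9%). Gm6166 took 13.7%, 8.43% and 9.16% in KO, against 29.6%, 24.3% and 29.5% in WT, and each KO value was below each WT value. In KO replicate 1 this rests on 10 reads, and its interval of 6.77 to 23.8% overlaps those of all WT libraries. The intervals of KO replicates 2 and 3 (7.35 to 9.61% and 8.06 to 10.4%) lay below those of WT. In FPKM the groups did not overlap for 22.6% of all tested genes. The split in KO replicate 1 and in WT rests on 54 to 95 copy reads per library.

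The family sum moved far less than its parts. It came to 8090, 6024 and 6698 reads in KO replicates 1 to 3, or 427, 322 and 380 RPM, which scales reads to the library's total of reads in genes. In WT replicates 1 to 3 it came to 6932, 8099 and 10884 reads, or 377, 455 and 523 RPM. As FPKM times gene length the sum was 430173, 332795 and 378007 in KO and 375735, 450344 and 500701 in WT. KO replicate 2 was the lowest library, and the groups overlapped. The mean was 376 ± 52.5 RPM in KO and 452 ± 72.9 RPM in WT (SD, n = 3 each), a log2 difference of -0.26 beside a standard deviation of 0.22 between libraries of a group. The difference was -0.36 without KO replicate 1, -0.15 without KO replicate 2, -0.15 without WT replicate 3 and -0.10 when FPKM values were summed. For Rps3a1 alone KO stood at 0.656 times WT in FPKM, and for the sum at 0.833 times WT in RPM.

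**Figure D2:**
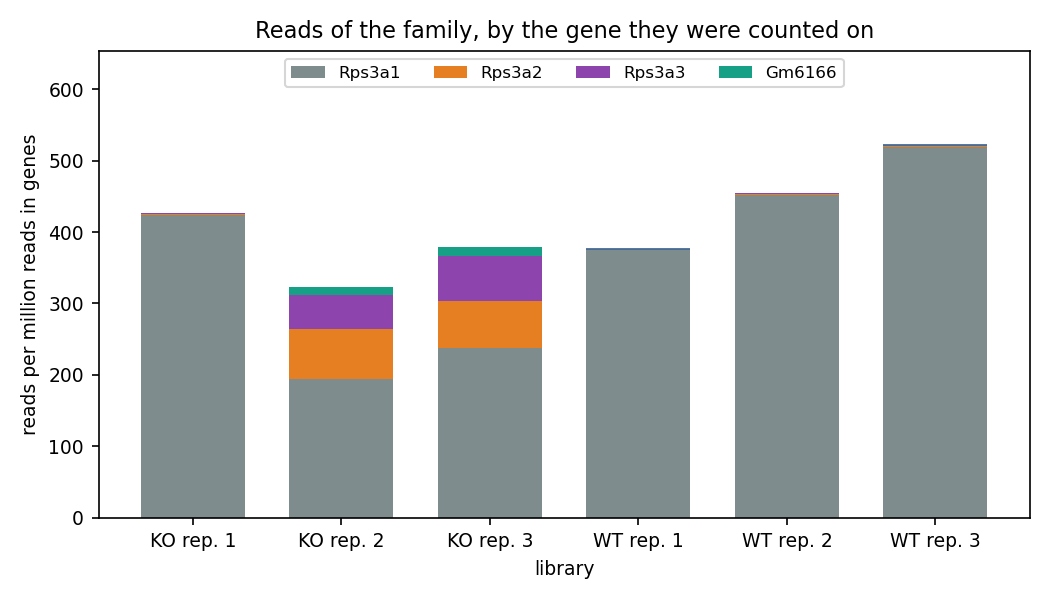
Reads of the family in RPM, stacked by the gene on which they were counted, for the 3 KO and the 3 WT libraries. The copies make up 39.8% and 37.5% of the bar in KO replicates 2 and 3 and under 1% in the others, while the whole bars lie between 322 and 523 RPM.

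Other proteins of the small subunit gave a scale within each library. The median FPKM of the other 32 genes of this subunit was 137, 108 and 129 in KO replicates 1 to 3, against 114, 135 and 87.5 in WT. Rps3a1 alone stood at 3.18, 1.90 and 1.87 times this median in KO, against 3.33, 3.40 and 5.80 times in WT. When the reads of all 4 genes were put over the length of Rps3a1, the ratio was 3.20, 3.15 and 2.99 in KO, against 3.36, 3.43 and 5.86 in WT. The ratio of the sum thus had a standard deviation of 0.112 over the KO libraries, against 0.747 for Rps3a1 alone, and over the WT libraries it had 1.42, against 1.41 for Rps3a1 alone. On this scale the groups did not overlap for the sum (2.99 to 3.20 in KO, 3.36 to 5.86 in WT). Nor did they for Rps3a1 alone (1.87 to 3.18 in KO, 3.33 to 5.80 in WT). The gaps were narrow, and the groups did not overlap in FPKM for 22.6% of all tested genes. In RPM the groups overlapped for the sum, and in FPKM for Rps3a1. WT replicate 3 stood apart in both ratios, with the lowest median of the list, and it also had the lowest mitochondrial share of reads, 3.42% against 5.63 to 8.14% in the other 5. Among the 33 genes, Rps3a1 ranked 2, 6 and 6 in KO and 2, 2 and 1 in WT, and the family sum in its place ranked 2, 2 and 3 in KO and 2, 2 and 1 in WT.

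**Figure D3:**
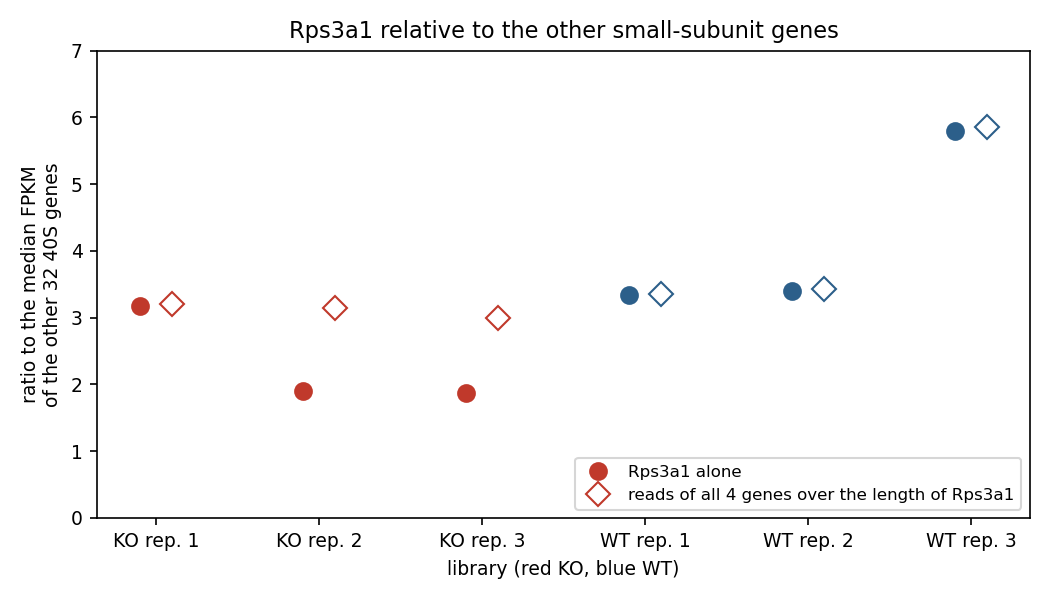
Ratio of Rps3a1 (filled circles) and of the reads of all 4 genes over the length of Rps3a1 (open diamonds) to the median FPKM of the other 32 small-subunit genes, KO in red and WT in blue. The circles drop to 1.90 and 1.87 in KO replicates 2 and 3, where the diamonds stay at 3.15 and 2.99.

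No ribosomal protein gene on 2 subunit lists passed the test over all genes. Of the 32 small-subunit genes 0 were called higher and 0 lower by limma, with 0 calls by voom. Of all 16155 tested genes limma called 0.0124% and voom 0, so 0 calls on a short list says little about it. At an unadjusted p under 0.05, 3 were higher and 0 lower, or 9.38% and 0%, where 8.36% of all tested genes were higher (1351) and 6.85% lower (1106). Their median log2 difference was 0.07, beside 0.01 for all 16155 tested genes. Of the 32, 21 were positive and 11 negative, beside 8312 and 7843 of all tested genes. Rps29 had the highest difference, at 349, 265 and 468 FPKM in KO against 139, 202 and 87.8 FPKM in WT (log2 1.37 ± 0.33, limma adjusted p = 0.205). Rps28 followed at 0.95 and Rps27 at 0.46. At the other end were Rps27a (-0.59), which encodes a fusion of ubiquitin and a ribosomal protein, Rps10 (-0.17) and Rps12 (-0.14). Rps27a measured 50.3, 44.8 and 55.9 FPKM in KO, against 104, 115 and 36.0 FPKM in WT, so WT replicate 3 lay below all KO libraries. The -0.68 of Rps3a1 lay below all 32, and the -0.26 of the family sum, on its own scale, lay between Rps27a and Rps10. Of 47 large-subunit (60S) genes 0 were called in either direction by limma and 0 by voom. Their median was 0.11, and 39 were positive and 8 negative. At an unadjusted p under 0.05, 5 were higher and 1 lower, or 10.6% and 2.13%, where 8.36% of all tested genes were higher and 6.85% lower.

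Processed copies of other ribosomal protein genes were taken by name, as symbols that begin with Rpl or Rps and end in -ps with or without a number. The table holds 298, and 73 passed the filter on low values. By limma 0 were called higher and 0 lower, with 0 calls by voom. As limma called 0.0124% of all tested genes and voom 0, these counts say little about the list. At an unadjusted p under 0.05, 14 were higher and 6 lower, or 19.2% and 8.22%, where 8.36% of all tested genes were higher and 6.85% lower. Of the 73, 48 had a positive and 25 a negative log2 difference, beside 8312 and 7843 of all tested genes. Their log2 differences ran between -0.96 and 1.77 with a median of 0.21. Rps3a2, Rps3a3 and Gm6166 thus lay above all of them, at 3.39, 3.76 and 1.97. The highest was Rpl30-ps10, with 20.7, 42.0 and 26.0 FPKM in KO against 2.03, 14.1 and 15.9 FPKM in WT (limma adjusted p = 0.314). Rps25-ps1 followed with 1.55, 0.877 and 9.26 FPKM in KO against 0.860, 1.18 and 0.243 FPKM in WT, high in KO replicate 3 alone, and then Rps15a-ps7 (log2 1.12). Lowest were Rpl21-ps10 (-0.96), Rps2-ps10 (-0.86) and Rps12-ps3 (-0.69). The last of these measured 98.4, 73.6 and 73.0 FPKM in KO, against 117, 136 and 140 FPKM in WT (limma adjusted p = 0.187).

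**Figure D4:**
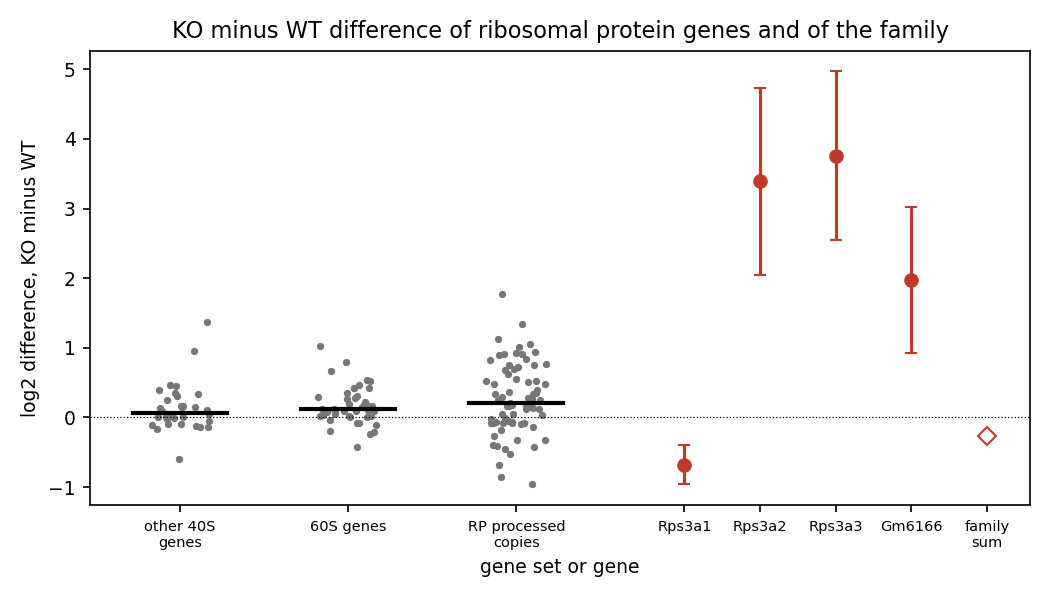
Log2 difference, KO minus WT, of ribosomal protein genes (grey points, black bar at the median) and of the 4 family members (red, with standard errors) on the log2(FPKM + 0.5) scale. The open diamond is the family sum on the log2 scale of RPM, at -0.26, while the copies lie at 1.97 to 3.76 with wide errors.

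The spread between libraries of the same group set the copies apart from most genes. Over the 3 KO libraries the log2(FPKM + 0.5) of Rps3a2 ranged over 5.20, of Rps3a3 over 4.86 and of Gm6166 over 4.16. These were the ranks 4, 6 and 10 of 16155 tested genes, where the median range was 0.27. Over the 3 WT libraries the same genes ranged over 0.79, 0.48 and 0.48, beside a median of 0.23. Rps3a1 ranged over 1.09 in KO (rank 734) and 0.41 in WT. Ahead of all the copies in KO were the hypothalamic peptide genes Avp (8.37) and Oxt (8.13) and then Xist (6.43). Between Rps3a2 and Gm6166 stood also Gm10020 (5.11 in KO, 0.24 in WT), the Y-linked Ddx3y (4.81 in KO) and Eif2s3y (4.48), and Gm22121 (4.28). In KO replicates 1 to 3 the level of Avp was 894, 2.20 and 325 FPKM, against 350 to 783 FPKM in WT, and that of Oxt was 168, 0.103 and 12.5 FPKM, against 133 to 209 FPKM in WT. The summed level of 4 hypothalamic markers was 1064, 4.25 and 341 FPKM in KO, against 952, 913 and 509 FPKM in WT, so it was lowest in the same libraries in which the copies were high, and its part in their level was not tested. Nor was that of the sex of the mouse, which differs in KO replicate 1. The 688 tested processed pseudogenes had a median range of 0.59 in KO and 0.58 in WT.

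**Figure D5:**
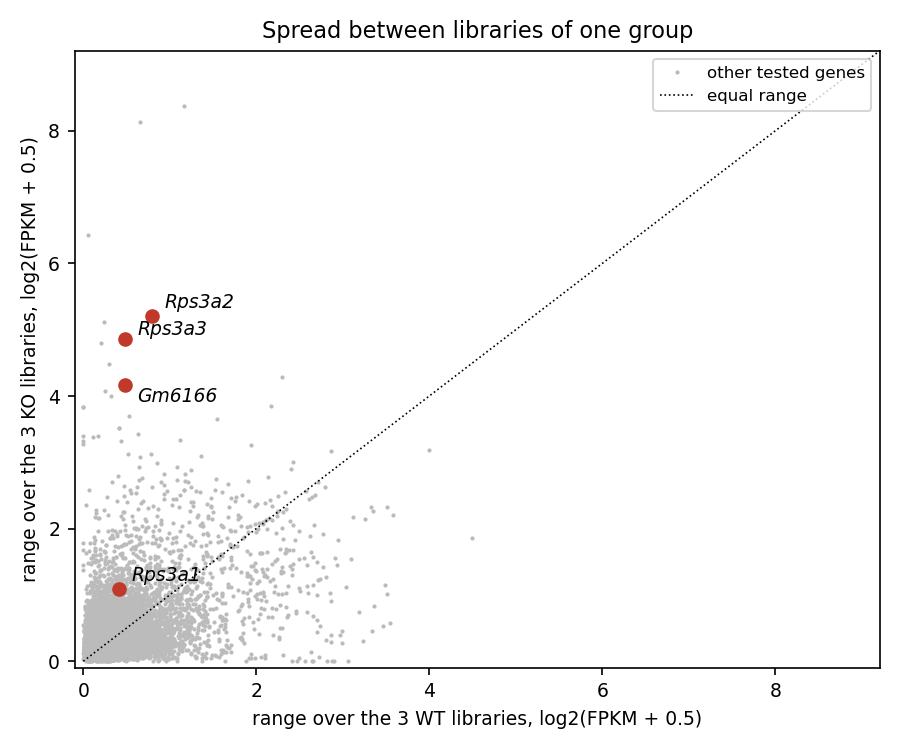
Range of log2(FPKM + 0.5) over the 3 KO libraries (vertical) against the range over the 3 WT libraries (horizontal) for 16155 tested genes, with the 4 family members in red. Rps3a2, Rps3a3 and Gm6166 lie at 5.20, 4.86 and 4.16 in KO and at 0.79, 0.48 and 0.48 in WT.

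Among genes that overlap or flank the copies, Pde4d and Rpp25 did not show the pattern of the copies. The others had 0 to 7 reads per library, too few to compare. Rps3a3 lies inside the interval of Pde4d, a cAMP phosphodiesterase gene on the same strand, which measured 2.95, 3.23 and 3.15 FPKM in KO, against 3.58, 2.83 and 3.11 FPKM in WT. Gm6166 lies inside Gm18103, another processed pseudogene on the same strand, which had 1, 0 and 2 reads in KO and 1, 4 and 0 in WT. Next to it, D9Wsu149 had 3, 5 and 5 reads in KO against 2, 7 and 6 in WT, and Rpp25, a ribonuclease P subunit gene, measured 10.8 to 12.8 FPKM in KO against 11.9 to 13.2 FPKM in WT. The nearest genes to Rps3a2 (Gm4355 and Gm26405) and to Rps3a3 outside Pde4d (Gm28016 and Mir582) had 0 reads in every library. Genes at 0 can show no pattern, and Gm28016 and Mir582 lie 171633 and 653347 bases from Rps3a3.

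Within Rps3a1 the table places the small nucleolar RNA genes Snord73a and Rnu73b, on the same strand. Snord73a had 3, 0 and 1 reads in KO and 0, 1 and 4 in WT, and Rnu73b had 1, 3 and 0 in KO and 2, 5 and 5 in WT. These counts are too low to compare. The lincRNA Gm37933 starts 55 bases beyond the start of Rps3a1 on the other strand, and had 5, 1 and 1 reads in KO against 4, 5 and 5 in WT. Sh3d19, on the other side, measured 1.46, 1.95 and 2.22 FPKM in KO against 2.04, 2.35 and 2.42 FPKM in WT. The sources used here do not say how reads in overlapping genes, or reads that match several genes equally, were counted.

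The genes whose levels were most like those of the family over the 6 libraries were taken from the 8131 genes that averaged 5 FPKM or more. For Rps3a1 the highest Pearson correlations of log2 values were those of Gal, the neuropeptide galanin (0.995), Gm3764 (0.991) and Rbm8a, an exon junction complex gene (0.991). Gal measured 7.77, 0.543 and 1.51 FPKM in KO, against 5.33, 8.12 and 10.01 FPKM in WT. For the summed FPKM of the 3 copies they were those of Pla2g15, a lysosomal phospholipase (0.999), Slc1a2, the glial glutamate transporter (0.979), and Ncald, a neuronal calcium sensor (0.973). Pla2g15 measured 8.88, 10.5 and 10.6 FPKM in KO, against 8.74, 8.78 and 8.92 FPKM in WT, a far smaller difference in size than that of the copies. Slc1a2 measured 141, 186 and 174 FPKM in KO, against 143, 146 and 144 FPKM in WT. With 6 libraries, 2 of which stand apart from the other 4 in these genes, such values describe little more than that split.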

How the data were processed

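RNA of 3 KO and 3 WT mouse libraries was sequenced after a SMARTER mRNA library kit, per the labels' protocols. The authors deposited FPKM values for 54532 genes with gene length, coordinates and biotype. The build was GRCm38 (mm10), per the submitters' processing notes. The sources used here do not give the aligner, counting program, annotation release, strand setting or treatment of multiply matching reads. To recover reads, FPKM times gene length was divided by the smallest nonzero product of each library, and 100% of nonzero results were whole to within 0.01. Shares have exact Clopper-Pearson 95% intervals.

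All genes averaging at least 0.5 FPKM (16155) were fitted on log2(FPKM + 0.5) with limma-trend and robust moderation (limma 3.58.1, R 4.3.3), with Benjamini-Hochberg adjusted p under 0.05 and differences as KO minus WT. This scale understates changes of low genes. The family and the gene lists were chosen with earlier results of these data known. Named genes were the members, overlapping and nearest genes, the 3 highest and 3 lowest differences of 2 lists (processed copies at a mean of at least 1 FPKM), the 3 most alike in level, Cntnap4, Xist, Y-linked genes and markers. AC087802.5 was named after its values were seen. The labels name separate mice only by number, so a p-value sets the group difference against the spread between these libraries, which may be technical. Alternatives were other pseudocounts, no filter, 2 rescalings, a replicate block, voom on recovered reads and leaving out each library.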

Additional observations from a re-analysis of the deposited data

How the results depend on the processing

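The number of genes past the threshold, 2 of 16155, depended on the setting. It was 0 with a pseudocount of 0.1 (2477 at an unadjusted p under 0.05), 0 without the filter (3065), 0 with voom on recovered reads (2640) and 5 after rescaling to an equal FPKM sum. Leaving out each library in turn gave 0 to 9 genes, with 9 without KO replicate 1. With the replicate number as a block it was 0 (1664 at an unadjusted p under 0.05). No pairing by number was seen. Deviations of same-numbered libraries correlated at -0.0899, -0.138 and -0.0661 for replicates 1 to 3, and no library correlated best with its own number. With so few libraries such a check cannot exclude a pairing.

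The log2 differences of the 4 members kept their sign under all alternatives run. For the copies this was given in advance, since each alternative kept at least 1 of KO replicates 2 and 3, where they were high. Leaving out each library gave -1.00 to -0.46 for Rps3a1, 2.50 to 5.10 for Rps3a2, 2.89 to 5.32 for Rps3a3, 1.24 to 3.32 for Gm6166 and -0.38 to -0.15 for the family sum. For the shares of family reads, KO minus WT, it gave -37.81 to -18.36 percentage points for Rps3a1, 8.60 to 19.35 for Rps3a2, 7.26 to 15.30 for Rps3a3 and 1.51 to 3.16 for Gm6166. In each of these ranges of a single gene the value farthest from 0 was without KO replicate 1. Computed from FPKM alone, the share of Gm6166 differed by 4.33 points, against 2.07 from reads, since FPKM gives a short gene more weight. Median differences ran over -0.01 to 0.17 for the small-subunit list, 0.04 to 0.21 for the large-subunit list and 0.11 to 0.28 for the processed copies. In KO replicate 1 and WT the copies rest on 10 to 40 reads per gene, which limits their levels and split there.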
